A study of Mus musculus with 12 samples.

Results

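The 10 genes described here mark astrocytes or carry out their transport work. They are Gfap, S100b and Aldh1l1, the glutamate transporters Slc1a2 and Slc1a3, the sodium pump subunit Atp1b2, the bicarbonate cotransporter Slc4a4, the water channel Aqp4, and the gap junction proteins Gja1 and Gjb6. They were taken by name from the 55487 gene rows of each tissue's table. All 10 were found once, and 10 of 10 passed the filter on low values in both tissues, an average of 10 normalized counts or more across a tissue's 6 libraries. RNA sequencing of total RNA was done on cerebral cortex and hippocampus of C57BL/6 mice, with 3 knockout and 3 wild-type libraries per tissue, 12 in all. The knockout mice, labelled mTert KO, G1 and Homo (read here as homozygous), lack Tert, the catalytic subunit of telomerase. The wild-type mice (mTert WT) carry it. The age and sex of the mice, how the allele was made and whether each library stands for its own animal are not stated in the sources used here, so a p-value speaks of the variation among these libraries, part of which may be technical.

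Astrocytes are glial cells whose processes surround synapses and blood vessels. They take up glutamate with sodium-driven transporters, restore the ion gradients with the sodium pump, move bicarbonate and water across their membranes, and pass ions and small molecules to each other through gap junctions. Gfap, their filament protein, is known to be abundant in hippocampal astrocytes and to rise when astrocytes become reactive.

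Tert was at 0 in the 3 knockout cortex libraries, and at 0, 6.31 and 0 normalized counts in the knockout hippocampus libraries, against means of 184 ± 70.6 in wild-type cortex and 153 ± 28.6 in wild-type hippocampus (SD, n = 3). Taking the smallest step between a library's values as 1 read, the libraries held 68424934 to 77972013 reads in cortex and 72401909 to 86639113 in hippocampus, so counting error was small for the astrocyte genes, whose lowest group mean was 3374. A pair of wild-type libraries stood out. Cortex wild-type library 2 differed from the mean of libraries 1 and 3 by a median log2 of 0.34 over protein-coding genes with up to 2 kb of exons and of -0.46 over those above 12 kb. Hippocampus wild-type library 3 lay between libraries 1 and 2 for 88.6% of the 666 genes at which those libraries were at least 1 apart on the log2 scale, with a median position of 0.51 from library 1 to library 2. In the other groups library 3 lay between the other two for 66.8% to 72.8% of such genes. Its median position was also 0.52 in knockout cortex (quartiles 0.21 and 0.93) and 0.52 in knockout hippocampus (quartiles 0.29 and 0.90). In wild-type cortex it was 0.14, and the quartiles in wild-type hippocampus were 0.42 and 0.61. Why the libraries lie so was not tested. A library 3 midway between libraries 1 and 2 adds little to the spread of its group. SDs and p-values may therefore be too small in wild-type hippocampus and, with medians of 0.52, in the knockout groups. The calls and list counts that rest on the pair of wild-type libraries are given with and without them.

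In hippocampus, 4 of the 10 astrocyte genes rose in the knockout, namely Gfap, Slc1a3, Atp1b2 and Gja1, and 2 fell, namely Slc1a2 and Slc4a4. Aldh1l1, Aqp4, Gjb6 and S100b did not pass the test. Calls were made with limma over all genes tested, at an adjusted p (Benjamini-Hochberg) under 0.05, and 29.2% of the 22337 genes tested in hippocampus were called, 14.1% higher and 15.1% lower. Higher calls made up 48.2% of all calls, 60.7% with quantile normalization and 74.1% once a trend along exonic length was taken out. The knockout and wild-type libraries did not overlap for 7 of the 10 genes, against 45.8% of all genes tested. The median log2 fold change of the 10 genes was 0.094, against 0.015 over all genes. These are values per piece of tissue, in which fewer cells of a type and less RNA per cell cannot be told apart. Without wild-type library 3, with 16.5% of 22218 genes called (5.95% higher and 10.5% lower), Gfap, Slc1a3 and Atp1b2 were called higher and Slc4a4 lower. Without wild-type library 1, with 5749 genes called against 6513 with all libraries, 3 of the 10 genes were higher and 2 lower. Gja1 was then not called (limma adjusted p = 0.0604), and Slc1a2 was at -0.47 (limma adjusted p = 0.00110). With both libraries numbered 3 left out, 7.14% of 22285 genes were called (0.731% higher and 6.41% lower), and among the 10 genes Slc4a4 alone, lower.

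In cortex, Gfap fell in the knockout and the other 9 genes did not pass the test. Of the 21945 genes tested there, 1.94% were called, 1.28% higher and 0.661% lower. Knockout and wild-type libraries did not overlap for 2 of the 10 genes, Gfap and Slc4a4, against 28.3% of all genes tested. The median log2 fold change of the 10 genes was -0.076, against -0.012 over all genes. Without wild-type library 2, with 21.4% of 21927 genes called (11% higher and 10.4% lower), 4 of the 10 were called, Gfap and Slc1a2 lower and Atp1b2 and S100b higher. Libraries of a group also varied together across the 10 genes. Knockout cortex library 1 was the highest of its group for 9 of them and library 2 the lowest for 8, and among wild-type hippocampus libraries library 2 was highest for 9 and library 1 lowest for 8. This was not counted over all genes. The total of normalized counts in wild-type hippocampus was likewise lowest in library 1 (7.42e+07) and highest in library 2 (7.93e+07), while in knockout cortex library 2 had the highest total (7.36e+07).

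**Figure D1:**
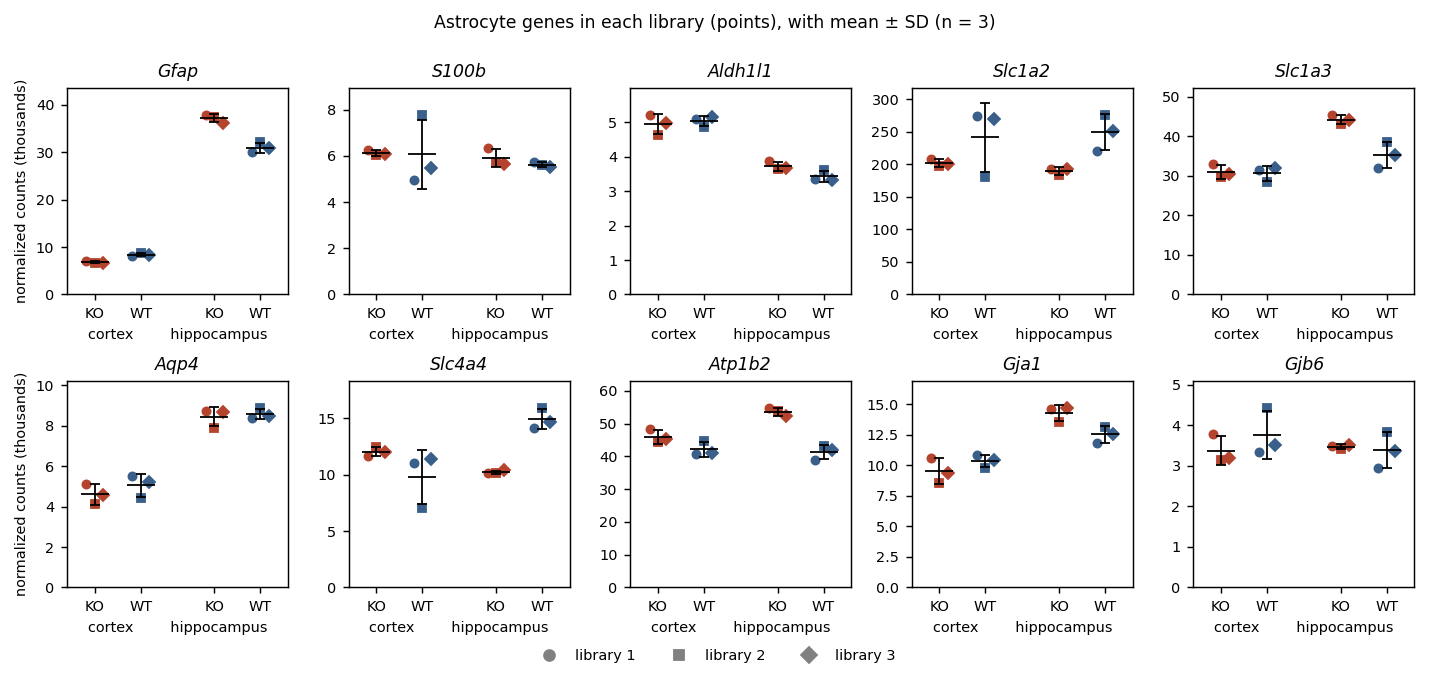
Normalized counts, in units of 1000, of the 10 astrocyte genes in each library, knockout (KO, red) left of wild type (WT, blue) within cortex and hippocampus, with mean ± SD (n = 3). Gfap in knockout libraries lies below wild type in cortex and above it in hippocampus, and wild-type cortex library 2 (square) stands apart for Slc1a2, Slc4a4 and S100b.

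Gfap encodes glial fibrillary acidic protein, the intermediate filament by which astrocytes are usually stained (chromosome 11, 102887336 to 102900912, minus strand, GRCm38). In hippocampus it reached 37818, 37453 and 36126 normalized counts in knockout libraries, against 29956, 32074 and 30812 in wild-type libraries. Every knockout library was above every wild-type library. Gfap rose to 1.20 times the wild-type mean, a log2 fold change of 0.26 ± 0.04 (SE; limma adjusted p = 0.00403), and it was called in 16 of 17 alternative settings. In cortex the knockout libraries held 7076, 6687 and 6613 normalized counts, against 8205, 8725 and 8334 in wild-type libraries. There every knockout library was below every wild-type library. Gfap fell by 0.31 ± 0.06 on the log2 scale in cortex (95% interval -0.45 to -0.17; limma adjusted p = 0.0497). The cortex call lay at the threshold and was made in 5 of 15 alternative settings, with an adjusted p of 0.00103 without wild-type library 2 and up to 0.633, while the log2 fold change stayed between -0.36 and -0.28.

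S100b encodes a calcium-binding protein used as an astrocyte marker (chromosome 10, 76253853 to 76261159, plus strand), and Aldh1l1 a folate enzyme that marks astrocytes widely (chromosome 6, 90486427 to 90600203, plus strand). S100b held 6335, 5750 and 5648 normalized counts in knockout hippocampus, against 5740, 5602 and 5525 in wild-type hippocampus. The groups overlapped, with a log2 fold change of 0.071 ± 0.051 (limma adjusted p = 0.343). In cortex S100b held 6272, 6027 and 6075 in knockout libraries, against 4968, 7776 and 5471 in wild-type libraries. Wild-type library 2 was the highest of the 6 and its group enclosed all knockout values (log2 fold change 0.040 ± 0.15, limma adjusted p = 0.912), and without that library the log2 fold change was 0.23 with a limma adjusted p of 0.00770. Aldh1l1 held 3872, 3639 and 3659 normalized counts in knockout hippocampus, against 3356, 3620 and 3322 in wild-type hippocampus. The groups did not overlap, but the log2 fold change of 0.12 ± 0.05 missed the threshold (limma adjusted p = 0.114). In cortex Aldh1l1 averaged 4944 ± 287 in knockout and 5034 ± 152 normalized counts in wild-type libraries (SD, n = 3), and the groups overlapped. Exons of Aldh1l1 overlap 2 predicted genes, Gm45901 on the same strand and Gm15756 on the opposite strand, so its counts are less certain.

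Slc1a2 (GLT-1) and Slc1a3 (GLAST) encode the sodium-driven transporters by which astrocytes clear released glutamate. Slc1a2 lies at chromosome 2, 102658659 to 102790784, plus strand, and Slc1a3 at chromosome 15, 8634124 to 8710764, minus strand. In hippocampus Slc1a3 reached 45418, 43194 and 44162 normalized counts in knockout libraries, against 31993, 38651 and 35377 in wild-type libraries. Every knockout library was above every wild-type library, and Slc1a3 rose by 0.33 ± 0.07 on the log2 scale (limma adjusted p = 0.0108; 0.0490 without wild-type library 3). Slc1a2 went the other way, with 193421, 183003 and 193501 normalized counts in knockout hippocampus, against 221229, 275965 and 251616 in wild-type hippocampus. Every knockout library was below every wild-type library, and Slc1a2 fell by 0.39 ± 0.09 (limma adjusted p = 0.0134). Slc1a2 missed the threshold without wild-type library 3 (log2 fold change -0.38, limma adjusted p = 0.0701) and with a trend along gene length removed (0.0019, limma adjusted p = 0.988). A predicted gene on the opposite strand, Gm13872, overlaps Slc1a2 exons.

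In cortex Slc1a3 held 33086, 29599 and 30543 normalized counts in knockout libraries, against 31399, 28579 and 32097 in wild-type libraries. The groups overlapped (log2 fold change 0.018 ± 0.073, 95% interval -0.15 to 0.19). Slc1a2 held 209038, 197031 and 200103 in knockout cortex, against 274642, 180452 and 269692 in wild-type cortex. Wild-type library 2 was the lowest of the 6 and libraries 1 and 3 the highest, so the log2 fold change of -0.23 ± 0.16 did not pass (limma adjusted p = 0.485). Without library 2 it was -0.43 (limma adjusted p = 2.1e-05).

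Because both transporters are read from the same libraries, their ratio was taken within each library. In hippocampus Slc1a2 over Slc1a3 was 4.26, 4.24 and 4.38 in knockout libraries, against 6.91, 7.14 and 7.11 in wild-type libraries. All knockout ratios lay below all wild-type ratios, with means of 4.29 ± 0.08 and 7.06 ± 0.12 (SD, n = 3), and the 2-sided exact permutation test gave p = 0.1, the smallest value that 3 against 3 allows. On the log2 scale the ratio differed by -0.72, and by -0.53 with the length trend removed. In cortex the ratio was 6.32, 6.66 and 6.55 in knockout libraries, against 8.75, 6.31 and 8.40 in wild-type libraries. Wild-type library 2 lay just below the knockout range and libraries 1 and 3 above it (exact permutation p = 0.4).

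**Figure D2:**
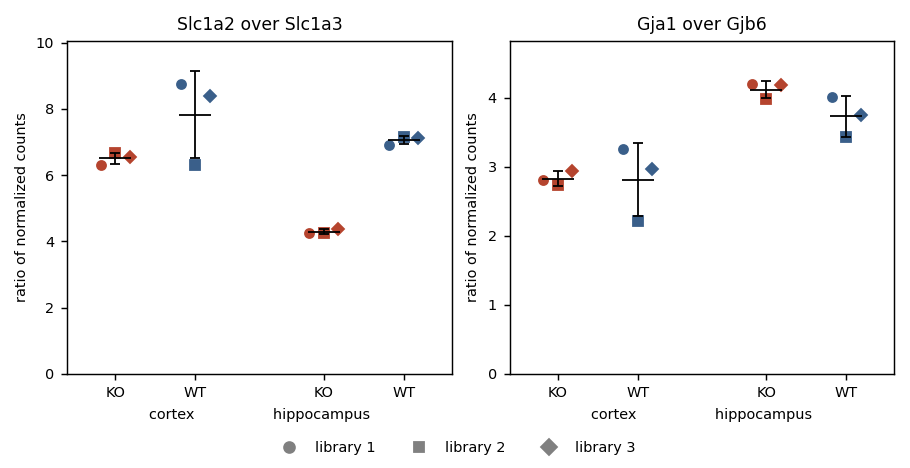
Ratios of normalized counts within each library for the glutamate transporters (Slc1a2 over Slc1a3, left) and the gap junction genes (Gja1 over Gjb6, right), knockout (KO, red) left of wild type (WT, blue) in each tissue, with mean ± SD (n = 3). The hippocampal transporter ratio is 4.24 to 4.38 in knockout and 6.91 to 7.14 in wild-type libraries, and the other 3 pairs of groups overlap.

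Promoter windows are shown for the gene that differed in opposite directions between tissues (Gfap) and for the transporters that moved in opposite directions in hippocampus (Slc1a3 and Slc1a2). They are RefSeq windows of 300 bases in GRCm38.p6, with 250 bases before and 50 after the annotated start, at chr11:102897151-102897450 (minus strand) for Gfap, chr15:8710758-8711057 (minus strand) for Slc1a3 and chr2:102706188-102706487 (plus strand) for Slc1a2. Capitals mark the letters TTCNNNGAA, the palindrome that STAT factors are known to bind, which reads the same on both strands and was the only motif searched.
Gfap: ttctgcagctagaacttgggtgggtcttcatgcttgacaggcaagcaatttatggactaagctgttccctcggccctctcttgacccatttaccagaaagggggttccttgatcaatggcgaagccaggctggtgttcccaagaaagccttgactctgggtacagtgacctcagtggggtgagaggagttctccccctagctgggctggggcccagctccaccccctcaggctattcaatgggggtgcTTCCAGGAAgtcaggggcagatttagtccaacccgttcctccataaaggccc
Slc1a3: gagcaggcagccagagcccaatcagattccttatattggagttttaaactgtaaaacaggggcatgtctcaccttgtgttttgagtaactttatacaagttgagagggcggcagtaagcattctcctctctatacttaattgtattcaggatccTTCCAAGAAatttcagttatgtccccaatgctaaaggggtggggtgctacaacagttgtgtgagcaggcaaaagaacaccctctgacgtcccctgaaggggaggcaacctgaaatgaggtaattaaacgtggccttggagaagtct
Slc1a2: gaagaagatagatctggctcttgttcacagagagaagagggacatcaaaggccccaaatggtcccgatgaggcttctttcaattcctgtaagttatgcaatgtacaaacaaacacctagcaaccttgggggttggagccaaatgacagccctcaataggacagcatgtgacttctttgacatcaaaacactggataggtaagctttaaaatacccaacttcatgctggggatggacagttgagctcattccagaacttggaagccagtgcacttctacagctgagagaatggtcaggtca
The motif began at base 249 of the Gfap window and base 155 of the Slc1a3 window, and had 0 matches in the Slc1a2 window. Of the 10 genes, 8 had a window, and 2 of their 9 windows held a match, against 2726 of 32851 windows of all genes (8.3%). A match is a run of letters and not a binding site, and the RefSeq starts of Gfap and Slc1a2 lie inside the longer gene models to which reads were matched here.

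Atp1b2 encodes a beta subunit of the sodium pump found in glia (chromosome 11, 69599736 to 69605942, minus strand). In hippocampus it reached 54754, 53890 and 52276 normalized counts in knockout libraries, against 39036, 43288 and 41980 in wild-type libraries. Every knockout library was above every wild-type library, and Atp1b2 rose by 29.5% of the wild-type mean, a log2 fold change of 0.37 ± 0.05 (limma adjusted p = 0.00170). In cortex it held 48240, 44306 and 45258 normalized counts in knockout libraries, against 40737, 44741 and 41060 in wild-type libraries. Wild-type library 2 was above knockout library 2, so the groups overlapped, and the log2 fold change of 0.12 ± 0.07 did not pass (limma adjusted p = 0.376; 0.17 with limma adjusted p = 0.0105 without wild-type library 2).

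Slc4a4 encodes NBCe1, which carries sodium and bicarbonate together and so takes part in pH control (chromosome 5, 88886818 to 89239653, plus strand). In hippocampus it held 10119, 10178 and 10384 normalized counts in knockout libraries, against 14177, 15912 and 14642 in wild-type libraries. The knockout libraries lay close together and all below wild type. Slc4a4 fell by 31.4% of the wild-type mean, a log2 fold change of -0.54 ± 0.05 (limma adjusted p = 0.000241), and was called in all 17 alternative settings, with -0.24 once the length trend was removed. In cortex it held 11627, 12434 and 12040 in knockout libraries, against 11003, 7038 and 11407 in wild-type libraries. The knockout libraries were all above wild type, but wild-type library 2 alone was far below the rest. The log2 fold change of 0.33 ± 0.17 did not pass (limma adjusted p = 0.372), and it was 0.10 without that library.

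Aqp4 encodes the water channel of astrocyte endfeet on blood vessels (chromosome 18, 15389496 to 15410982, minus strand). In hippocampus it held 8754, 7907 and 8701 normalized counts in knockout libraries, against 8378, 8880 and 8485 in wild-type libraries. The groups overlapped, with a log2 fold change of -0.023 ± 0.051 (95% interval -0.14 to 0.096). In cortex it held 5138, 4116 and 4572 in knockout libraries, against 5507, 4426 and 5227 in wild-type libraries. These groups overlapped too, with a log2 fold change of -0.13 ± 0.11 (95% interval -0.39 to 0.13).

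Gja1 (connexin 43) and Gjb6 (connexin 30) encode the main channel proteins of astrocyte gap junctions. Gja1 lies at chromosome 10, 56377330 to 56402513, plus strand, and Gjb6 at chromosome 14, 57123303 to 57133611, minus strand. In hippocampus Gja1 reached 14601, 13569 and 14708 normalized counts in knockout libraries, against 11827, 13176 and 12608 in wild-type libraries. Knockout library 2 was only just above wild-type library 2, and the groups did not overlap. Gja1 rose by 0.19 ± 0.05 (limma adjusted p = 0.0329), a call made in 9 of 17 alternative settings and lost without wild-type library 3 (limma adjusted p = 0.101). Gjb6 held 3481, 3413 and 3521 in knockout hippocampus, against 2949, 3843 and 3368 in wild-type hippocampus. The wild-type values enclosed the knockout values (log2 fold change 0.044 ± 0.088, limma adjusted p = 0.748). In cortex neither passed, Gja1 with a log2 fold change of -0.13 ± 0.09 and Gjb6 with -0.15 ± 0.12, and both groups overlapped for each gene. The ratio of Gja1 to Gjb6 averaged 4.12 ± 0.12 in knockout and 3.73 ± 0.29 in wild-type hippocampus (SD, n = 3; exact permutation p = 0.2), and 2.83 ± 0.11 in knockout and 2.81 ± 0.53 in wild-type cortex (p = 1).

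**Figure D3:**
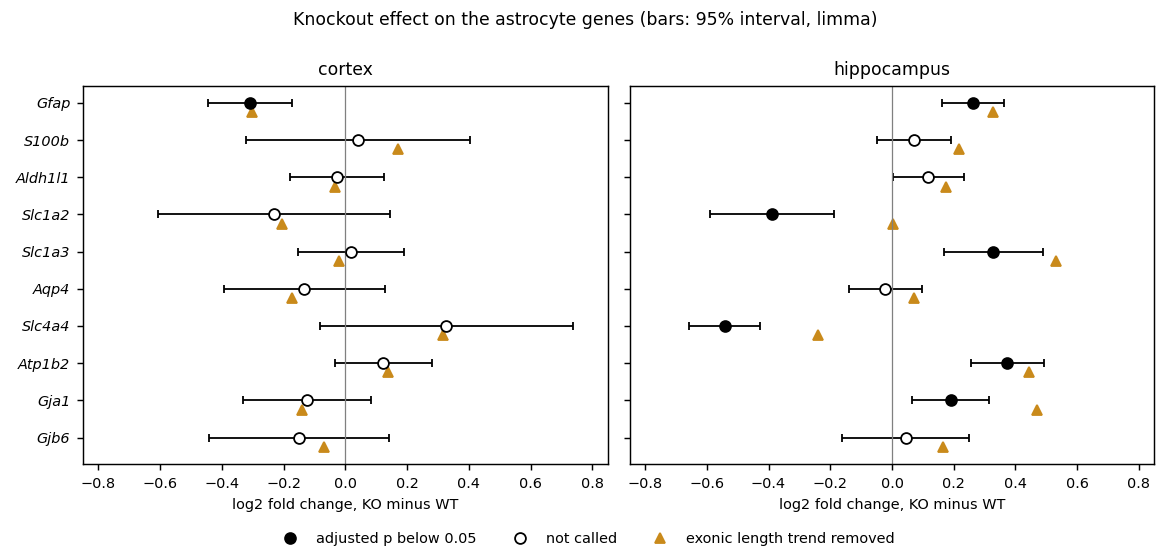
Log2 fold change (knockout minus wild type) of each astrocyte gene in cortex and hippocampus with its 95% interval from limma, filled where the adjusted p was below 0.05, and the value with the exonic length trend removed (triangles). Gfap is at 0.26 in hippocampus and -0.31 in cortex, and in hippocampus the triangle of Slc1a2 is at 0.0019.

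Whether the knockout effect differed between tissues was tested as the genotype by tissue term of a limma fit to the 12 libraries, which called 3.02% of 21282 genes (0.963% with a higher and 2.05% with a lower effect in hippocampus). Higher ones made up 31.9% of these calls, and 52.9% with the length trend removed. The difference was called for 2 of the 10 astrocyte genes, 1 in each direction. For Gfap the effect in hippocampus exceeded that in cortex by 0.57 ± 0.07 on the log2 scale (limma adjusted p = 0.00295), and the call was made in 20 of 21 alternative settings, lost with the 4 libraries numbered 3 left out (limma adjusted p = 0.305). For Slc4a4 the effect in hippocampus minus that in cortex was -0.87 ± 0.20 (limma adjusted p = 0.0423), a call made in 8 of 21 alternative settings, with -0.64 and a limma adjusted p of 0.000294 without cortex wild-type library 2. The differences for Slc1a3 (0.31 ± 0.10), Gja1 (0.31 ± 0.11) and Atp1b2 (0.25 ± 0.08) did not pass (limma adjusted p = 0.118, 0.124 and 0.117), and that of Slc1a2 was -0.16 ± 0.20 (limma adjusted p = 0.657). Libraries of the 2 tissues were treated as unrelated samples, and whether they share animals is not stated in the sources used here.

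Gene length moved with the knockout effect in hippocampus. Among protein-coding genes with merged exons of 2 to 4 kb the median log2 fold change was 0.10 and 4.61% fell, while above 12 kb the median was -0.46 and 71% fell. The astrocyte genes that fell are long, Slc1a2 with 13.1 kb and Slc4a4 with 10.8 kb of exons, whereas Gfap has 4.22 kb and Atp1b2 4.09 kb. By merged exons Slc1a3 (8.54 kb) and Gja1 (10.3 kb) are also long but rose. Their class of 8 to 12 kb had a median of -0.16, and 41% of it fell and 8.41% rose. Their longest transcripts are shorter, 4.435 kb for Slc1a3 and 3.889 kb for Gja1, against 11.595 kb for Slc1a2 and 7.931 kb for Slc4a4. Classes by longest transcript were not taken, and the trend removed here also ran along merged exonic length. With the length trend removed in hippocampus 5 of the 10 genes were higher and 1, Slc4a4, lower, against 37.4% of all genes called, 27.7% higher and 9.68% lower. Gja1 was then at 0.47 and Slc1a3 at 0.53 on the log2 scale, and S100b, at 0.22, joined those called (limma adjusted p = 0.0220). In cortex, with all libraries, the medians by length class lay between -0.12 and 0.063. Wild-type library 2, itself shifted along exonic length, enters these medians, so they cannot show whether the tissues differ in this trend. Medians without that library were not taken. Leaving it out moved the cortex log2 fold change of the long genes Slc1a2 from -0.23 to -0.43 and Slc4a4 from 0.33 to 0.10. Slc1a3 moved from 0.018 to -0.032 and Gja1 from -0.13 to -0.16.

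**Figure D4:**
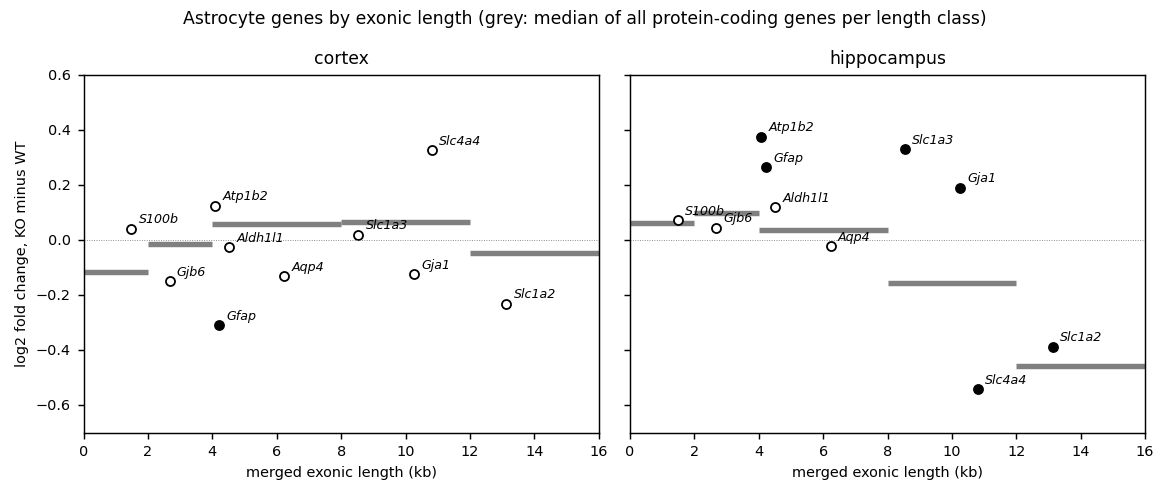
Log2 fold change (knockout minus wild type) of the 10 astrocyte genes against merged exonic length in kb, filled where called, with the median of all protein-coding genes in each length class (grey bars). In hippocampus Slc1a2 sits near the -0.46 median of genes above 12 kb. Slc1a3 and Gja1 sit far above the -0.16 median of genes of 8 to 12 kb of merged exons. Their longest transcripts are shorter, 4.435 kb for Slc1a3 and 3.889 kb for Gja1.

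Levels were ordered per kb of exonic length within each tissue. In hippocampus Slc1a2 was highest, at 14466 ± 460 normalized counts per kb in knockout and 19006 ± 2088 in wild type (SD, n = 3), followed by Atp1b2 at 13131 ± 308 in knockout and 10143 ± 533 in wild type. Gfap came next, at 8803 ± 211 in knockout and 7337 ± 253 in wild type, then Slc1a3 and S100b. Per kb of the longest transcript instead, Gfap (14023 in knockout and 11687 in wild type) came before Atp1b2 (14300 in knockout and 11046 in wild type) in wild-type but not in knockout hippocampus. By exonic length, Aldh1l1 was lowest, at 825 ± 28.6 in knockout and 760 ± 36.0 in wild type. Slc4a4 was ninth in knockout, at 946 ± 12.9 per kb, and sixth in wild type, at 1379 ± 83.0. Aqp4 overlapped its neighbours in both groups, with Gja1 and Gjb6 beside it in knockout and Slc4a4 and Gjb6 beside it in wild type. In cortex Slc1a2 and Atp1b2 again led, followed by S100b, Slc1a3 and Gfap, and Aqp4 was lowest, at 739 ± 82.1 in knockout and 811 ± 90.0 in wild type. The libraries of S100b and Slc1a3 overlapped in wild-type cortex but not in knockout cortex. Per kb of the longest transcript Slc1a3 came before S100b in cortex, at 7007 in knockout and 6920 in wild type, against 4127 in knockout and 4091 in wild type for S100b. That measure also changed the order of lower genes in cortex and in wild-type hippocampus.

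Other genes of astrocyte pathways were read as lists, beside the 14.1% of all genes that were called higher and 15.1% called lower in hippocampus. There 17 of 25 other astrocyte markers rose and 0 fell, with a median log2 fold change of 0.21 against 0.015 over all genes. Without wild-type library 3, with 5.95% of all genes higher and 10.5% lower, 7 of these markers were higher and 0 lower. With all libraries the markers of smallest p were F3, tissue factor (0.28 ± 0.04), and Gpc5, a glypican (0.45 ± 0.07). The predicted gene Gm20713 overlaps Gpc5 exons on the opposite strand. Of 11 genes of transmitter uptake and metabolism 5 rose and 1 fell, among them the GABA transporter Slc6a11 (0.35 ± 0.04) and the glycine transporter Slc6a9 (0.32 ± 0.04), which exons of other genes overlap on the opposite strand. Of 15 pump, channel and pH genes 4 rose and 4 fell. Slc4a8, a sodium-driven bicarbonate transporter, fell by 0.79 ± 0.06 on the log2 scale, and was at -0.41 with the length trend removed. Of 13 endfoot genes 4 rose and 3 fell. Among the falls were the matrix protein agrin (Agrn, -0.48 ± 0.04) and dystrophin (Dmd, -0.44 ± 0.05). With the length trend removed Agrn was at -0.24 and Dmd at 0.18.

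The remaining lists stand beside the same 14.1% of all genes higher and 15.1% lower in hippocampus. The gap junction list of 11 genes had 1 rise, Gjd2, a connexin of neurons (0.53 ± 0.15, overlapped on the opposite strand by A530058N18Rik), and 1 fall, Tjp1, a junction scaffold protein (-0.42 ± 0.04). Of 15 transcription factors and signalling genes of astrocytes 3 rose and 3 fell in hippocampus. The receptor Notch2 fell by 0.91 ± 0.07, and Zbtb20 by 0.54 ± 0.05, with 0.16 once the length trend was removed (both have exons that overlap other gene models). Of 33 genes tied to reactive astrocytes 1 rose and 2 fell. The 2 were the protease inhibitor Timp1 (24.8 ± 5.95 normalized counts in knockout and 57.0 ± 7.59 in wild type, SD, n = 3) and Aspg (-0.46 ± 0.12). Of 11 S100 and filament genes 0 rose and 3 fell, among them S100a9, a calcium-binding protein of myeloid cells (-1.38 ± 0.31), and Synm, the filament protein synemin (-0.47 ± 0.05, overlapped on the opposite strand by Ttc23 and Gm45102). Of 10 folate genes 1 rose and 2 fell, among them the methionine synthase gene Mtr by 0.60 ± 0.06. Without wild-type library 3, with 5.95% of all genes higher and 10.5% lower, the counts higher and lower were 4 and 0 for transmitter uptake, 2 and 3 for pumps, 1 and 3 for endfeet, 0 and 1 for gap junctions, 3 and 3 for transcription factors, 0 and 0 for reactive genes, 0 and 1 for S100 and filament genes, and 1 and 2 for folate genes. With the length trend removed, where 27.7% of all genes were higher and 9.68% lower, the counts were 19 and 0 for the other astrocyte markers, 9 and 0 for transmitter uptake, 8 and 2 for pumps, 8 and 1 for endfeet, 3 and 1 for gap junctions, 8 and 1 for transcription factors, 4 and 2 for reactive genes, 1 and 3 for S100 and filament genes, and 1 and 2 for folate genes. Of the genes named above as lower, Tjp1 was then at -0.25, Notch2 at -0.61, Mtr at -0.40, Synm at -0.29 and Aspg at -0.37. Timp1 was at -1.04 and S100a9 at -1.24. The median of the endfoot list was then 0.21, against -0.12 with the trend left in. Over all genes the median moved as well, to 0.14 from 0.015.

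In cortex, where 1.28% of all genes were called higher and 0.661% lower, few genes of these lists passed. Of the 25 other astrocyte markers 2 fell, the urea transporter Slc14a1 (-0.54 ± 0.09) and the receptor S1pr1 (-0.30 ± 0.06), with a list median of -0.070 against -0.012 over all genes. Of the 15 transcription factors and signalling genes 2 fell, Sox2 (-0.39 ± 0.07) and Zbtb20 (-0.35 ± 0.06). Of the 15 pump, channel and pH genes 1 rose. Of the 10 folate genes 1 rose, Mthfd1l, an enzyme of mitochondrial folate metabolism (0.95 ± 0.09, limma adjusted p = 0.00723). Of the 11 S100 and filament genes 1 fell, S100a8, a calcium-binding protein of myeloid cells. It was at 0 in the 3 knockout libraries and at 7.93, 97.2 and 31.6 normalized counts in the wild-type libraries. Of the calls of named genes that of Mthfd1l was made in 13 of 15 alternative settings and the others in 4 to 6 of 14 or 15. Without wild-type library 2, with 21.4% of all genes called, 3 of the 25 other astrocyte markers were higher and 3 lower. The transmitter, endfoot, gap junction and reactive lists had 0 genes called in cortex by limma with all libraries. Without wild-type library 2 the counts higher and lower were 3 and 2 for transmitter uptake, 5 and 4 for pumps, 2 and 2 for endfeet, 1 and 1 for gap junctions, 2 and 5 for transcription factors, 2 and 2 for reactive genes, 1 and 1 for S100 and filament genes, and 2 and 3 for folate genes. Over all genes limma called 426 there, with 4040 at an unadjusted p below 0.05.

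**Figure D5:**
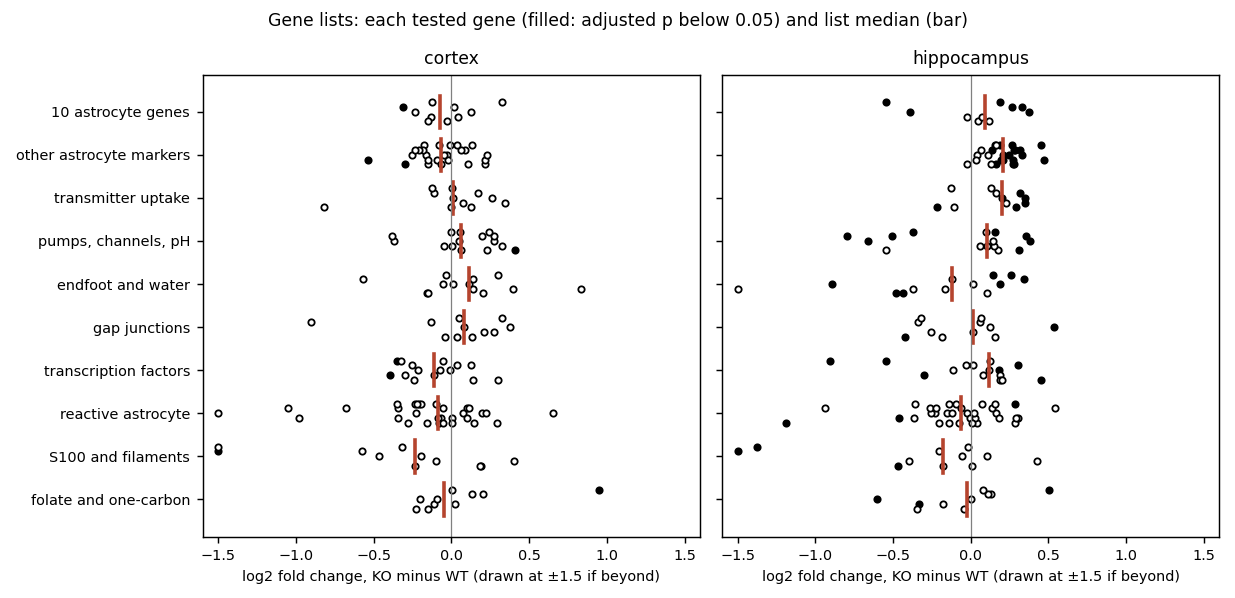
Log2 fold change (knockout minus wild type) of every tested gene of the astrocyte lists in cortex and hippocampus, filled where the limma adjusted p was below 0.05, with each list's median as a red bar. In hippocampus 17 of the 25 other astrocyte markers are filled and to the right of 0, and in cortex few points are filled.

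Lists of markers of other cells were counted in the same way. In hippocampus, beside 14.1% of all genes higher and 15.1% lower, 9 of 10 microglia markers rose, with sums of 33354 to 34987 normalized counts in knockout and 23154 to 27508 in wild-type libraries. Of 10 neuron markers 5 rose and 1 fell (970468 to 1000390 in knockout and 812554 to 963597 in wild type), and of 10 oligodendrocyte markers 5 rose (449032 to 520930 in knockout and 413518 to 418424 in wild type). The 10 choroid plexus markers, of which 1 fell, summed to 18952, 9676 and 13876 in knockout libraries, against 358622, 13154 and 185967 in wild-type libraries. Wild-type libraries 1 and 3 were far above the other 4. Library 3 lay about midway between libraries 1 and 2 here too, and whether it is a separate case of a high sum was not tested. Without wild-type library 3, with 5.95% of all genes higher and 10.5% lower, 5 microglia, 1 neuron and 1 oligodendrocyte marker were higher, 1 neuron marker was lower and 0 choroid plexus markers were called by limma. In cortex, beside 1.28% of all genes higher and 0.661% lower, 9 of 10 markers of striatal neurons rose, with sums of 41611 to 66558 in knockout and 18580 to 19141 in wild-type libraries, and in each of these 5 lists 0 markers were at 0 in any library. Of the other lists of 8 to 10 tested markers, hippocampus had 2 rises and 1 fall among oligodendrocyte precursor markers, 2 falls among ependymal and 3 among neural progenitor markers, 2 rises and 2 falls among striatal markers, and 0 endothelial and 0 meningeal markers called by limma (at sums of 28017 to 28259 in knockout and 21309 to 45879 in wild type for endothelial and of 11995 to 17069 in knockout and 10762 to 24132 in wild type for meningeal markers). In cortex 1 neuron, 1 microglia, 1 choroid plexus and 2 endothelial markers rose, 1 meningeal and 1 neural progenitor marker fell, and 0 markers of oligodendrocytes, their precursors or ependymal cells were called by limma with all libraries. Without cortex wild-type library 2, with 11% of all genes higher and 10.4% lower, 9 of 10 neuron, 8 of 10 oligodendrocyte, 10 of 10 striatal, 4 microglia, 6 endothelial, 2 choroid plexus and 1 neural progenitor marker were higher, and 1 neuron, 2 oligodendrocyte precursor, 1 endothelial, 1 ependymal, 4 meningeal and 3 neural progenitor markers were lower. Without hippocampus wild-type library 3 there were 1 rise and 1 fall among precursor markers, 2 falls among ependymal and 2 among neural progenitor markers, and 1 rise and 2 falls among striatal markers. The part of these markers in the results for the astrocyte genes was not tested.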

How the data were processed

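RNA from knockout and wild-type cortex and hippocampus was sequenced, 3 libraries per group. The authors deposited 1 table per tissue whose values are a signal, normalized counts per gene. The submitters' processing notes name STAR, HTSeq, DESeq2 and the build GRCm38, and give no versions. Within each library the deposited values were whole multiples of 1 step (100% within 0.001 of a whole number). For hippocampus the reads so recovered were tested as well. In cortex this was not done, since the steps of wild-type libraries 1 and 2 were too close to 1 to be checked. A 0 may stand for up to 3 reads by counting error alone. Each tissue's table has its own scaling, and levels were compared only inside a table.

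Gene identifiers were matched to GENCODE M21 (55141 of 55487 rows), which gave symbols, coordinates and exonic lengths. How reads over overlapping genes were assigned, and whether strand was used, is not stated in the sources used here. Genotypes were compared with limma 3.58.1 in R 4.3.3 on log2(normalized count + 1), a scale that understates changes of low genes, with a prior variance that follows expression and Benjamini-Hochberg adjustment over all genes with a mean of at least 10. The fits were tested on simulated data. The alternatives were other pseudocounts, no filter, no trend of the prior variance, TMM and quantile scaling, the exonic length trend removed, each library left out, a replicate block and, for hippocampus, edgeR 4.0.16 and DESeq2 1.42.0 on recovered reads. Leaving out both libraries numbered 3 was chosen after seeing the data.

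The 10 genes and the 19 other lists were chosen with earlier results of these data known. Named besides the 10 were Tert and up to 2 genes of smallest p per astrocyte pathway list and tissue, given where called, while markers of other cells were given as counts and sums. A few genes that this rule takes are not reported here.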

Additional observations from a re-analysis of the deposited data

Results flagged for a closer look

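For 2 astrocyte genes the knockout effect differed between the tissues by a test of that difference, which called 3.02% of 21282 genes. The call was made in 20 of 21 alternative settings for Gfap and in 8 of 21 for Slc4a4. In cortex alone Gfap lay at the threshold (limma adjusted p = 0.0497). The log2 fold change of Gfap in hippocampus exceeded that in cortex by 0.57 (limma adjusted p = 0.00295), with 0.26 in hippocampus and -0.31 in cortex. The log2 fold change of Slc4a4 in hippocampus minus that in cortex was -0.87 (limma adjusted p = 0.0423), with -0.54 in hippocampus and 0.33 in cortex, where the value was 0.10 without wild-type library 2.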

How the results depend on the processing

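The signs of some log2 fold changes turned, among them those of Slc1a2, Dmd and Zbtb20 in hippocampus, which had been called lower. Removing the length trend also moved the hippocampal median of all genes to 0.14. Slc1a2 and Aqp4, though above 0, then lay below that median, and Zbtb20 close to it. With the exonic length trend removed the log2 fold change was -0.021 for Slc1a3 in cortex, and in hippocampus 0.072 for Aqp4, 0.0019 for Slc1a2, 0.18 for Dmd (limma adjusted p = 0.0293) and 0.16 for Zbtb20, while the tissue difference of Slc1a2 was 0.21. With quantile normalization Slc1a3 in cortex was at -0.083 and S100b at -0.014. With both libraries numbered 3 left out S100b in cortex was at -0.016. With single libraries left out the value spanned 0 for Slc1a3 (-0.032 to 0.052), Aldh1l1 (-0.066 to 0.018) and S100b (-0.091 to 0.23) in cortex, for Aqp4 (-0.049 to 0.025) and Gjb6 (-0.052 to 0.14) in hippocampus, and for the tissue differences of Slc1a2 (-0.26 to 0.042) and S100b (-0.16 to 0.16).

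In cortex 426 genes and 1 astrocyte gene, Gfap, were called. The counts were 1 gene and 0 astrocyte genes with both libraries numbered 3 left out, 233 and 0 without the filter, 86 and 0 without the trend of the prior variance, and 15 to 4693 and 0 to 4 over single libraries left out, where the highest were without wild-type library 2. Quantile normalization gave 0 astrocyte genes, and removing the length trend 1381 genes. In hippocampus 6513 genes and 6 astrocyte genes were called, against 1592 and 1 with both libraries numbered 3 left out and 3656 to 7833 and 4 to 7 over single libraries left out. For the tissue difference 642 genes and 2 astrocyte genes were called, against 5 and 0 with libraries numbered 3 left out, 370 and 1 without the filter, 253 and 1 without the trend, and 171 to 1965 and 1 to 3 over single libraries left out. Quantile normalization gave 1013 genes and removing the length trend 4 astrocyte genes. Fewer libraries enter the fits that leave some out, and the cause of the other shifts was not tested. Quantile scaling moved the hippocampal median of all genes to 0.093, and removing the length trend to 0.14.

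Deviations from the group means were not more alike for libraries with the same number. Between genotypes their correlations were -0.065 to 0.091, against -0.098 to 0.121 for other numbers. Between tissues they were -0.086 to 0.062, against -0.053 to 0.082 for other numbers. With 3 libraries per group such values cannot tell whether libraries share animals or batches. With a replicate block 45 genes and 0 astrocyte genes were called in cortex, 6015 and 5 in hippocampus, where Gja1 was lost (limma adjusted p = 0.0654), and 216 and 1 for the tissue difference.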
